A study of Mus musculus with 30 samples.

Results

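The genes described here are small nucleolar RNA (snoRNA) host genes, long noncoding transcripts that carry snoRNA genes within their bodies. Of 10 listed symbols (*Snhg1*, *Snhg3*, *Snhg4*, *Snhg5*, *Snhg6*, *Snhg8*, *Snhg12*, *Snhg15*, *Gas5* and *Dancr*), 9 are symbols of GENCODE vM21 and were found among the 55487 genes of each embryo count table. These symbols were selected on earlier results of the same counts, with no threshold recorded, so their own differences between genotypes and stages are given as a description, without a test. The symbol *Snhg4* is not in this annotation. The RefSeq *Snhg4* locus on chromosome 18 (GRCm38, 35553410 to 35558316) shares 99.2% of its length with the GENCODE gene *AC121821.1*, which was followed separately and is not counted among the 9.

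The counts come from 23 single mouse embryos of matings between *Dis3* het parents, after hormonal stimulation of the females. The knockout lines were founded by editing embryos of B6D2F1 parents, and the background of the het parents is not stated. *Dis3* null embryos carry on both alleles a deletion made by genome editing, het embryos carry it on 1 allele and wild-type embryos on none. The E2.5 stage comprised 4 null, 2 het and 6 wild-type embryos, and the E2.75 stage 3 null, 5 het and 3 wild-type embryos. The labels do not say which of the 2 knockout lines or which litter an embryo came from. Poly(A) RNA of each embryo was amplified and sequenced without regard to strand, and total counts on genes ranged from 1690192 to 14015980 per embryo. An embryo is a bulk sample, in which fewer cells and less RNA per cell cannot be told apart.

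*Dis3* had 0 to 21.5 CPM (counts scaled to library size by edgeR's TMM method) in the 7 null embryos and 30.4 to 59.2 CPM in the 7 het embryos. It had 18.1 to 147 CPM in the 9 wild-type embryos, of which replicate 6 of the libraries labelled E2.5 wild-type lay at 18.1 CPM, within the null range. Without that library, null against wild-type embryos gave the same 1 member higher and 1 lower as with it. The share of reads that fell outside exons was 32.3% to 43.9% in null, 21.2% to 27.9% in het and 20.99% to 33.4% in wild-type embryos, so that every null lay above every het embryo, and the part of this in the differences below was not tested. All 9 embryo markers had counts in every group, with summed levels of 9250 to 19483 CPM at E2.5 and 4998 to 6712 CPM at E2.75. The 8 cumulus cell markers summed to 5.61 to 65.6 CPM per embryo, and *Ptx3* and *Inhba* were at 0 in all 23. The 5 oocyte markers summed to 3.38 to 82.7 CPM, with none called. Of the embryo markers, *Krt18* (log2 fold change -2.95 ± 0.80) and *Gata3* (-2.12 ± 0.48) were called lower in null than in het embryos. For null against wild-type embryos, 0 of the 9 embryo markers were called. The mean levels of *Krt18* and *Gata3* were highest in the het embryos, and that of *Gata3* was not lower in null than in wild-type embryos.

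snoRNAs guide the methylation or pseudouridylation of ribosomal and other RNAs, and most vertebrate snoRNAs are released from spliced introns by exonucleases. The spliced host RNA is often a substrate of nonsense-mediated decay, and several host genes start with a pyrimidine tract typical of RNAs for the translation machinery. *Dis3* encodes a ribonuclease of the RNA exosome, which degrades many noncoding RNAs and trims precursors at their 3′ ends.

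The 9 members hold 31 annotated snoRNA genes of 60 to 205 bases on the same strand. *Gas5* holds 10 of them, *Snhg1* 8 and *Snhg12* 5, whereas *Snhg3* and *Snhg5* hold 2 each and *Dancr*, *Snhg6*, *Snhg8* and *Snhg15* 1 each. *Snord80* in *Gas5* and *Snora16a* in *Snhg12* are each annotated as 2 almost identical, overlapping genes. Both entries are counted here and in the counts that follow, so the number of distinct snoRNAs is smaller. In 17 of the 31 the letters of box C (TGATGA) lie near the 5′ end and those of box D (CTGA) near the 3′ end. In 8 others ACA lies near the 3′ end, the mark of the class that guides pseudouridylation. The remaining 6 had neither by this exact search. The members whose levels stood furthest from the other embryos in the null embryos were *Snhg3*, *Snhg15* and *Snhg5*, so their snoRNAs are shown, with *Snord87* of *Snhg6*, the only hosted snoRNA gene with counts. Each sequence is the reference transcript of GENCODE vM21 on GRCm38, and capitals mark ACA or boxes C and D.

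Snora73a (*Snhg3*, chr4:132352775-132352979, minus strand): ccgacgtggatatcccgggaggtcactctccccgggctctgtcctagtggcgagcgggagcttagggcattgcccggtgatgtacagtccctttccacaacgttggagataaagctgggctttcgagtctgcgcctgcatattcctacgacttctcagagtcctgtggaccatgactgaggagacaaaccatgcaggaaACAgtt
Snora73b (*Snhg3*, chr4:132352322-132352526, minus strand): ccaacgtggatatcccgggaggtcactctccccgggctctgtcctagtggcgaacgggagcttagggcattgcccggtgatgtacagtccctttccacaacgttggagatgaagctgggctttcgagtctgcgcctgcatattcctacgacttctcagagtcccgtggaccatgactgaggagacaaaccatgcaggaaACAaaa
Snora9 (*Snhg15*, chr11:6528033-6528165, minus strand): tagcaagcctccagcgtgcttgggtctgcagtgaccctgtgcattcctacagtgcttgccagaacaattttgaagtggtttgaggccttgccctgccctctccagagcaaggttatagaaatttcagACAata
Snord50a (*Snhg5*, chr9:88521529-88521600, minus strand): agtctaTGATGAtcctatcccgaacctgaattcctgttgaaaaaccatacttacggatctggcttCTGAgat
Snord50b (*Snhg5*, chr9:88521797-88521868, minus strand): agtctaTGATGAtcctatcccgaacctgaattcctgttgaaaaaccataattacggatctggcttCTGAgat
Snord87 (*Snhg6*, chr1:9942463-9942549, minus strand): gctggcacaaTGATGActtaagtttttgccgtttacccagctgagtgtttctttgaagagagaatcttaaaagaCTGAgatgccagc

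The pair in *Snhg3* differed at 7 of 205 positions and the pair in *Snhg5* at 1 of 72. *Snhg3* and *Snhg15* thus held only genes of the ACA type, and *Snhg5* only genes with boxes C and D. Of the 31 snoRNA genes, 29 touch an annotated exon of their host, *Snora73a* only in part. A read that lies wholly in shared bases belongs to more than 1 gene and is left out of the counts. The other 2 of the 31, *Snora73b* and *Snord87*, lie wholly within an intron. *Snora73a* and *Snora73b* had 0 counts in all 23 embryos, and *Snord87* had 86.

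Windows around the annotated starts were read from the RefSeq promoter sequences (GRCm38.p6), which matched 8 of the 10 symbols with 9 starts. They show 20 bases before the start and 30 from it on, for the 3 members above and for *Snhg8*, *Snhg12* and the inner of the 2 starts of *Gas5*, which lie in a pyrimidine run. Capitals mark the longest run of C or T within 10 bases either side of the start.

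Snhg3 (chr4:132353657-132353706, minus strand): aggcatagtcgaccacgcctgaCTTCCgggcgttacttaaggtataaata
Snhg15 (chr11:6528731-6528780, minus strand): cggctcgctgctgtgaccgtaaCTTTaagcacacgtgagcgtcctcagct
Snhg5 (chr9:88522868-88522917, minus strand): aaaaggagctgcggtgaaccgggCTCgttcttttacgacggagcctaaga
Gas5, inner start (chr1:161035146-161035195, plus strand): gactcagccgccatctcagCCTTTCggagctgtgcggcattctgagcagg
Snhg8 (chr3:123508307-123508356, minus strand): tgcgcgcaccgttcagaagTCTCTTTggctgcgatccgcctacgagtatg
Snhg12 (chr4:132308658-132308707, plus strand): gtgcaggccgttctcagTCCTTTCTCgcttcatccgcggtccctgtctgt

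A run of at least 6 pyrimidines was found at 4 of the 9 starts (the inner start of *Gas5* and those of *Snhg1*, *Snhg8* and *Snhg12*), and at 20.2% of all 32851 promoters. Within 10 bases either side, the starts of *Snhg3*, *Snhg15* and *Snhg5* had runs of 5, 4 and 3. Runs were cut at the edges of this window, for all promoters alike. A run at *Snhg1* and a second run at *Snhg5* go on beyond the edge, so they are longer than counted here. A run is a description of these letters and not evidence of a functional tract.

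Per kb of exon not shared with another gene, mean levels in the 9 wild-type embryos ranged from 15.5 ± 10.0 CPM per kb (SD) for *Dancr* to 258 ± 151 for *Gas5*. In between lay *Snhg8* at 17.1 ± 18.0, *Snhg12* at 20.2 ± 10.8, *Snhg1* at 96.4 ± 50.0, *Snhg6* at 112.5 ± 90.1, *Snhg15* at 116 ± 41.0 and *Snhg5* at 145 ± 103 CPM per kb. *Snhg1* exceeded *Snhg12*, the next lower gene, in all 9 embryos, by 3.19 to 6.91 times. Every other pair of neighbours in this order changed places in at least 1 embryo. *Snhg3* was left out of the order because 13.7% of its exon bases are free of other genes. Together the 9 genes took 0.0841% to 0.279% of the gene counts of an embryo.

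*Snhg3* (ENSMUSG00000085241, chromosome 4, 132348014 to 132353686, minus strand) was higher in null embryos than in any other embryo. At E2.5 the 4 null embryos stood at 69.9, 79.4, 84.3 and 124 CPM, and at E2.75 the 3 null embryos stood at 117, 100.01 and 189 CPM. The het embryos of E2.5 stood at 27.8 and 14.8 CPM and the 5 of E2.75 between 17.6 and 29.5 CPM (median 24.1). Among wild-type embryos, the 6 of E2.5 stood between 19.2 and 42.6 CPM (median 27.0) and the 3 of E2.75 at 14.6, 9.58 and 8.82 CPM. The lowest null embryo thus lay above the highest of the 16 others, a separation found for 1.24% of the 13415 genes tested. The log2 fold change was 2.24 ± 0.34 (SE) for null against het and 2.27 ± 0.31 for null against wild-type, with the stages combined.

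*Snhg3* shares 705 of its 986 exon bases with *Gm17300*, a noncoding gene on the opposite strand, and 135 with *Rcc1*, a coding gene for a nucleotide exchange factor on the same strand. Reads in the shared bases alone went to neither gene. *Gm17300* did not pass the test in null against het embryos by edgeR (log2 fold change -0.20 ± 0.35, adjusted p = 0.83), nor did *Rcc1* (0.06 ± 0.28, adjusted p = 0.95). The ratio of *Snhg3* to *Gm17300* counts within a library ranged from 0.451 to 1.79 in the 16 het and wild-type embryos. In the 7 null embryos it ranged from 1.87 to 13.9, without overlap but by a narrow margin. With respect to *Rcc1* the ratios overlapped, and 3 of the 7 null embryos exceeded all others. As *Snhg3* was chosen on these counts, the ratios describe that choice and are no further support. The part of the shared bases in the level of *Snhg3* was not tested.

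*Snhg15* (ENSMUSG00000085156, chromosome 11, 6525591 to 6528760, minus strand) was higher in most null embryos than in het embryos, and was called with the stages combined. At E2.5 the null embryos stood at 245, 305, 247 and 346 CPM, and at E2.75 they stood at 298, 200.03 and 102 CPM. The het embryos of E2.5 stood at 105 and 173 CPM and the 5 of E2.75 between 59.1 and 126 CPM (median 102). Among wild-type embryos, the 6 of E2.5 stood between 88.5 and 238 CPM (median 165) and the 3 of E2.75 at 90.0, 101 and 106 CPM. Of the 7 null embryos, 5 lay above every other embryo, and E2.75 null replicates 2 and 3 lay within the range of the het and wild-type embryos. The log2 fold change was 1.19 ± 0.27 against het and 0.81 ± 0.25 against wild-type embryos.

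*Snhg5* (ENSMUSG00000097195, chromosome 9, 88521050 to 88522929, minus strand) was lower in most null embryos than in the het embryos. At E2.5 the null embryos stood at 137, 84.5, 99.2 and 96.1 CPM, and at E2.75 they stood at 68.0, 56.9 and 85.3 CPM. The het embryos of E2.5 stood at 160 and 365 CPM and the 5 of E2.75 between 105 and 182 CPM (median 149.95). Among wild-type embryos, the 6 of E2.5 stood between 134 and 594 CPM (median 244) and the 3 of E2.75 at 82.8, 137 and 116 CPM. Below every het embryo lay 6 of the 7 null embryos, below every het and wild-type embryo only 2, and none reached the median of the 16 het and wild-type embryos. The log2 fold change was -0.99 ± 0.36 against het and -1.35 ± 0.35 against wild-type embryos.

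*Dancr* (ENSMUSG00000106943, chromosome 5, 74093060 to 74095406, plus strand) is a host gene known as a noncoding antagonist of differentiation. Its group mean was lowest in the het embryos at both stages, 25.1 CPM at E2.5 and 12.1 CPM at E2.75, although single E2.5 null embryos lay lower. At E2.5 the null embryos stood at 20.2, 21.9, 47.9 and 35.7 CPM, and at E2.75 they stood at 42.4, 13.8 and 66.9 CPM. The het embryos of E2.5 stood at 23.1 and 27.2 CPM and the 5 of E2.75 between 6.56 and 19.2 CPM (median 12.7). Among wild-type embryos, the 6 of E2.5 stood between 26.5 and 85.4 CPM (median 32.8) and the 3 of E2.75 at 14.6, 20.4 and 15.4 CPM. All 7 null embryos lay above the median of the het embryos and 4 above every het embryo, while null and wild-type embryos overlapped widely. The log2 fold change was 1.17 ± 0.43 for null against het and 0.10 ± 0.40 for null against wild-type embryos, and -1.07 ± 0.41 for het against wild-type. These values combine the stages. The het embryos were mostly of E2.75 and the wild-type embryos mostly of E2.5, so stage and genotype are partly mixed in them.

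On the strand opposite *Dancr*, *Gm43416* (ENSMUSG00000107255) shares 92 exon bases with it. It had 6 to 66 counts in each of the 7 null embryos, 246 in all, and 0 counts in the 7 het embryos. Of the 9 wild-type embryos, 3 had 1 or 2 counts. Pooled over embryos, its level was 7.19 CPM in null embryos, at least 155-fold higher than in het embryos against a limit of 3 counts over the group (counting error only). It was not used to choose the members, and it passed the test against het (adjusted p = 0.00071) and against wild-type embryos (log2 fold change 6.44 ± 1.10, adjusted p = 0.0011) in the edgeR fit. Without strand, reads from the shared bases of the pair cannot be told apart.

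The other 5 members differed less between genotypes, or rested on few counts. *Gas5* (chromosome 1, 161034422 to 161038539), a growth arrest gene and the most abundant member, had 355 to 874 CPM in null, 390 to 1156 in het and 314 to 1595 in wild-type embryos. *Snhg1* had 136 to 296 CPM in null, 144 to 309 in het and 135 to 480 in wild-type embryos. *Snhg6* had 55.0 to 148 CPM in null, 58.8 to 112 in het and 36.9 to 342 in wild-type embryos, and *Snhg12* 15.9 to 59.2, 20.8 to 57.9 and 16.6 to 84.5 CPM. All 4 overlapped between the genotypes, and their log2 fold changes for null against het ranged from -0.19 ± 0.28 for *Snhg1* to 0.29 ± 0.33 for *Gas5*. *Snhg8*, with 1985 counts over all embryos, had 0.493 to 7.69 CPM in null, 3.90 to 19.5 in het and 0.266 to 44.1 in wild-type embryos. No null embryo reached the median of the 16 het and wild-type embryos, and the log2 fold change was -1.12 ± 0.69 against het and -1.36 ± 0.66 against wild-type embryos. *AC121821.1*, at the *Snhg4* locus, had 41.0 to 248 CPM in null, 35.2 to 140 in het and 31.0 to 177 in wild-type embryos, with a log2 fold change of 0.04 ± 0.42 against het.

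**Figure D1:**
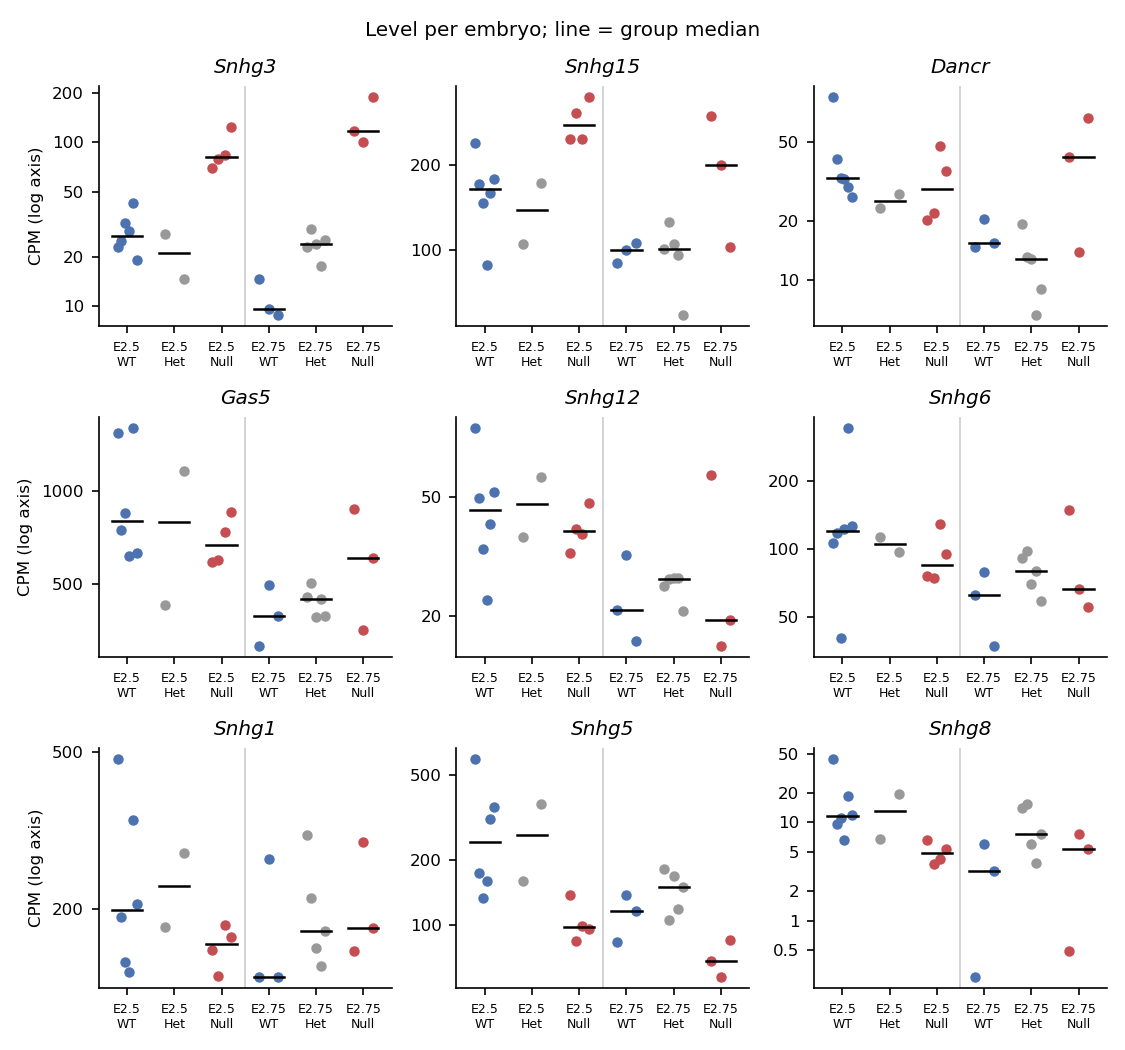
Level of each of the 9 host genes in each embryo, in CPM on a log axis, by stage and genotype; points are embryos and lines group medians. The null embryos (red) of *Snhg3* sit between 69.9 and 189 CPM, above all het (grey) and wild-type (blue) embryos, which reach 42.6 CPM.

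With the stages combined, 2 of the 9 members were called higher and 0 lower in null than in het embryos, where a call is an adjusted p under 0.1 with a log2 fold change beyond 1. These were *Snhg3* and *Snhg15*. *Snhg5* was also called, as lower, with stage as a covariate, with no filter on low counts and with only the 2 genotypes in the fit, and *Dancr*, as higher, with DESeq2. In the same comparison 5.73% of the 13415 genes tested were called in either direction. The null embryos all exceeded the het embryos for 2.2% of the genes and all fell short of them for 0.686%. Among the members the first held for *Snhg3* and the second for none, since 1 null embryo of *Snhg5* overlapped. The median log2 fold change was 0.19 over the 9 members and 0.02 over all genes tested. More of the het than of the null embryos were of the later stage, so stage enters these combined values. With stage as a covariate the medians were 0.03 and -0.0021. As the members were chosen on these counts, the share is not read as a result about them.

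Null and wild-type embryos gave 1 member called higher (*Snhg3*) and 1 lower (*Snhg5*), where 5.25% of 13415 genes were called. This comparison and the previous one share the null embryos. For het against wild-type embryos, edgeR called 0 members and 0% of 13415 genes, with 934 of them at an unadjusted p under 0.05. DESeq2 gave 37 genes higher and 28 lower, no member among them.

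Within E2.5, where only 2 het embryos were sequenced, 0 members and 0.0126% of 15904 genes were called for null against het, with 1473 at an unadjusted p under 0.05. DESeq2 gave 449 higher and 149 lower, *Snhg3* among the former. The log2 fold change of *Snhg3* was 1.99 ± 0.51 in the edgeR fit. Within E2.75, *Snhg3* (2.47 ± 0.32) and *Dancr* (1.74 ± 0.51) were called higher and *Snhg5* (-1.08 ± 0.28) lower in null than in het embryos, where 4.82% of 14442 genes were called. *Snhg15* had similar values at the 2 stages, 0.98 ± 0.37 at E2.5 and 1.01 ± 0.32 at E2.75. Against wild-type embryos, only *Snhg3* among the members was called at E2.5 (1.62 ± 0.34, with 1.82% of 15904 genes called) and at E2.75 (3.58 ± 0.40, with 4.54% of 14442 genes called). The difference between the stages in null against het was called for 0 members and 0 of 18677 genes by edgeR, with 1234 genes at an unadjusted p under 0.05, and DESeq2 called 23 genes higher and 58 lower. Its size for *Dancr* was 1.46 ± 0.78.

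The E2.75 calls of *Dancr* and *Snhg5* depended on single embryos. When each of the 8 null and het embryos was left out in turn, *Snhg3* was called in all 8 fits, *Snhg5* in 3 and *Dancr* in 2. Without het replicate 5 or null replicate 1 of E2.75, only *Snhg3* was called. At E2.75 DESeq2 and RLE size factors called *Snhg15* higher in place of *Snhg5* lower, and ERCC scaling lost *Dancr*. At E2.5, the call of *Snhg3* against wild-type embryos was lost without E2.5 null replicate 4 and on the ERCC scale (1.16), where *Snhg5* was called lower.

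Scaling by the ERCC spike-ins, RNAs added in equal amount to each embryo, moved the all-gene median of the log2 fold change for null against het from 0.02 to -1.08. On that scale *Snhg3* stayed higher in null embryos (1.15), and *Snhg15* and *Dancr* were at 0.07 and 0.12. *Gas5*, *Snhg12* and *Snhg6* turned negative (-0.76, -0.95 and -1.06). Called were 1 member higher and 4 lower, beside 289 genes higher and 4487 lower of all 13415 tested. The member count is thus not read as a result about them. Null against wild-type embryos gave the same direction for 8 of the 9 members on both scales, with *Dancr* at 0.10 and -0.02.

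**Figure D2:**
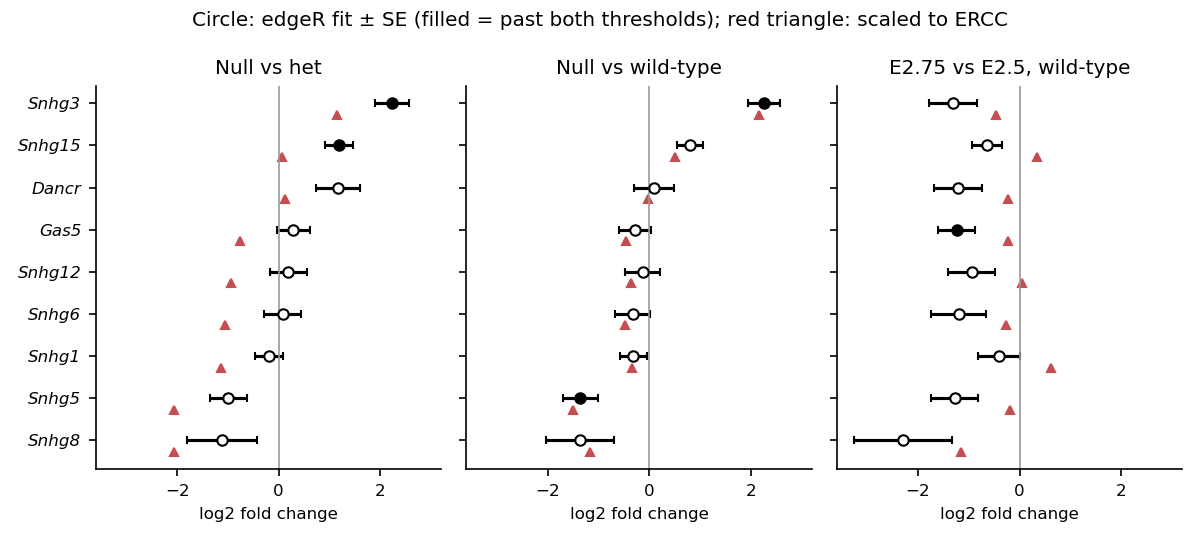
log2 fold change of the 9 host genes for null against het embryos, null against wild-type embryos and E2.75 against E2.5 in wild-type embryos. Circles with bars are the edgeR estimate ± SE, filled where both thresholds were passed, and red triangles the estimate scaled to ERCC spike-ins, which for null against het lies lower for every member and on the other side of 0 for *Gas5*, *Snhg12* and *Snhg6*.

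Ratios of counts within a library do not depend on the scaling. The ratio of *Snhg3* to *Gas5* was 0.0128 to 0.0650 in the 16 het and wild-type embryos and 0.114 to 0.312 in the 7 null embryos. The ratio of *Snhg3* to *Snhg5* was 0.0385 to 0.281 and 0.509 to 2.22. The ratio of *Snhg15* to *Snhg5* was 0.394 to 1.195 in the het and wild-type embryos and 1.201 to 4.38 in the null embryos. None of these 3 ratios overlapped between null and other embryos, although the last was separated by a narrow margin. The ratio of *Snhg15* to *Gas5* did overlap, at 0.0994 to 0.286 in the others and 0.169 to 0.564 in null embryos (6 of 7 above all others), as did that of *Snhg5* to *Gas5*, at 0.157 to 0.561 and 0.0778 to 0.233. These genes were chosen for their levels in these embryos, so the ratios describe that choice on a scale free of normalization and are no further support. *Snhg3* made up 5.24% to 14.4% of the summed counts of the 9 members in null embryos and 0.674% to 2.81% in the others, while *Gas5* made up 31.9% to 49.6% and 37.3% to 59.5%.

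**Figure D3:**
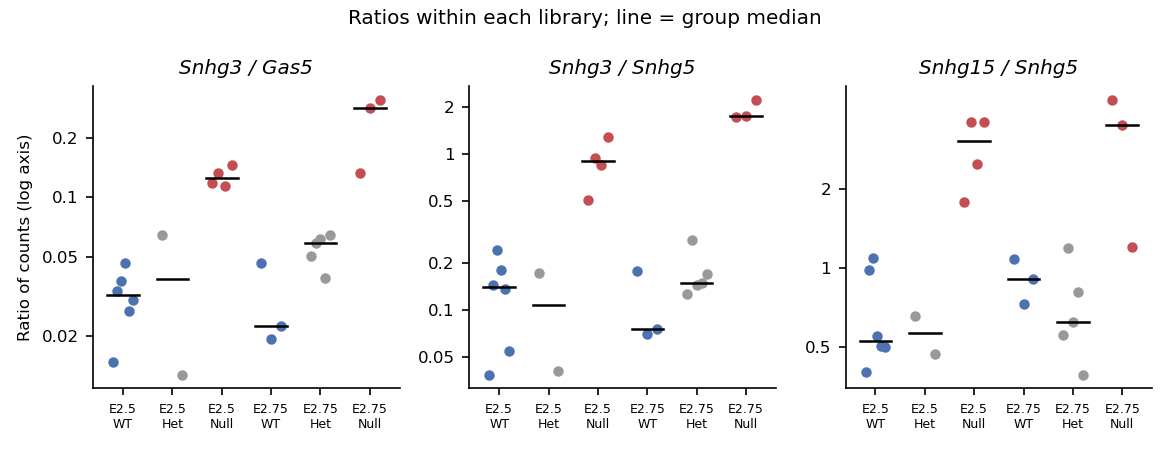
Ratios of the counts of 2 host genes within each library, on a log axis, by stage and genotype; points are embryos and lines group medians. Null embryos (red) lie above all het and wild-type embryos in the 3 panels, from 0.114 for *Snhg3* to *Gas5*, 0.509 for *Snhg3* to *Snhg5* and 1.201 for *Snhg15* to *Snhg5*.

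In wild-type embryos, levels of the host genes were lower at E2.75 than at E2.5. All 9 members had a negative log2 fold change, from -0.40 ± 0.41 for *Snhg1* to -2.29 ± 0.96 for *Snhg8*, with a median of -1.22 beside 0.03 for all genes. Only *Gas5* was called (-1.23 ± 0.36), where 6.76% of 13272 genes were called. It had 616 to 1595 CPM in the 6 embryos at E2.5 (median 797) and 314, 496 and 393 CPM at E2.75, without overlap. The stages did not overlap for *Snhg3* (-1.31 ± 0.48), *Dancr* (-1.22 ± 0.47) and *Snhg8* either, and overlapped for the other 5. For *Snhg8* the margin was narrow, at 6.56 CPM for the lowest E2.5 and 6.02 CPM for the highest E2.75 embryo. How many of all genes separate in this way was not counted, so the separation is not read as a result about the members. *AC121821.1* was the exception, at 0.44 ± 0.56. The call of *Gas5* was lost when any of 6 of the 9 embryos was left out, and on the ERCC scale, where the median of all genes rose to 0.92, *Snhg1*, *Snhg15* and *Snhg12* turned positive and *Gas5* was at -0.22.

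Other host genes were listed by symbol or by annotated snoRNA genes within them, on the same strand and outside their exons. The list of 51 other noncoding genes includes 3 by symbol alone (*Snhg17*, *Snhg20* and *Zfas1*), in which no annotated snoRNA gene lies clear of the exons. Of the 51, 15 were tested in null against het embryos, with a median log2 fold change of 0.27. The edgeR fit called 4 of the 15 higher, where 5.73% of all 13415 genes tested were called in either direction. *Snhg9* had 55.6 ± 49.9 CPM (SD, n = 7) in null and 9.91 ± 15.9 in het embryos (log2 fold change 2.51 ± 0.83, adjusted p = 0.092). *2700038G22Rik* had 56.7 ± 31.2 and 11.6 ± 2.54 CPM (2.29 ± 0.49, adjusted p = 0.0071). *Snhg20* had 76.6 ± 17.1 and 26.5 ± 14.5 CPM (1.54 ± 0.36, adjusted p = 0.013), and *Snhg14*, at the imprinted locus of the Prader-Willi region, 135 ± 61.4 and 49.8 ± 27.1 CPM (1.44 ± 0.35, adjusted p = 0.016). On the ERCC scale these 4 kept a positive sign without passing the test, and 4 other noncoding hosts fell. The 3 first named also rose against wild-type embryos. Of 240 coding hosts, 182 were tested and 3 passed in null against het embryos. *Prpf39* (1.39 ± 0.31) and *Pip5k1a* (1.37 ± 0.30) were higher and *Gsr* (-1.11 ± 0.37) lower. None of these 3 was called against wild-type embryos. There *Nup210l* (3.54 ± 0.93) was called higher and *Piwil2* (-1.68 ± 0.55) and *Nedd1* (-1.31 ± 0.38) lower. The mean of *Prpf39* was 133 CPM in null, 50.7 in het and 93.9 in wild-type embryos. For null against het, the median log2 fold change of the coding hosts was -0.0011, and on the ERCC scale 81 of them were called lower and 0 higher. Of all 13415 genes tested, 4487 were called lower and 289 higher on that scale.

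The genes for proteins that act on snoRNAs or host RNAs were compared in the same fit. For null against het, where 5.73% of all 13415 genes were called, 1 of 18 genes for snoRNP proteins and assembly factors was called, as higher. This was *Znhit6* of box C/D particle assembly (1.02 ± 0.29, adjusted p = 0.049 by edgeR), and its sign turned on the ERCC scale (-0.09). Its mean was 147 CPM in null, 72.9 in het and 131 in wild-type embryos. Against wild-type embryos, 0 of the 18 were called. For null against het, edgeR called 0 of 20 genes of nonsense-mediated decay and 0 of 7 genes of snoRNA 3′ trimming and adenylation. DESeq2 called 0 as well, and the median log2 fold changes were 0.10 and 0.24. On the ERCC scale 8 of the 18, 8 of the 20 and 1 of the 7 were called lower in null embryos. On that scale 4487 of all 13415 genes tested were called lower, so these counts are not read as a result about the lists.

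For the hosted snoRNAs outside host exons, the null embryos had 23 counts and the het embryos 20, all on *Snord87* and in libraries of poly(A) RNA. The mean log2(CPM + 1) was 0.71 in null and 0.37 in het embryos. The difference of 0.33 was not significant by a two-sided exact permutation test over all 3432 assignments (p = 0.16) or within stages (p = 0.21, 840 assignments). A difference was thus not detectable at this depth, and poly(A) selection leaves most mature snoRNAs out of such libraries.

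POU6F1, a POU domain factor, was mapped by ChIP-seq in mouse stem cells of embryonic origin, transfected with *Pou6f1-mCherry* 48 h earlier, with 2 peak lists for each of 2 replicates. By the paper's numbering, the first list was called against IgG and the second against cells transfected with mCherry alone. Within 1 kb of an annotated start, all 9 members had a peak in both lists of replicate 1, where 83% and 76.7% of 13399 genes had one. In replicate 2, 8 members had a peak in the first list (66.8% of genes) and 5 in the second (24.1% of genes), namely *Gas5*, *Snhg1*, *Snhg5*, *Snhg8* and *Snhg15*. *Snhg12* lacked a peak in both lists of replicate 2. Around the start of *Snhg15* shown above, the fold enrichment was 31.2 and 15.5 in replicate 1 and 12.8 and 7.88 in replicate 2, and for *Snhg3* it was 17.5, 13.6 and 7.41 in the 3 lists with a peak. The summits at *Snhg15* and *Snhg5* lay 46 to 109 bp before the nearest annotated start. Members higher and lower in null embryos thus both had peaks, and no test was made of these counts.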

How the data were processed

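Single-embryo RNA-seq counts (23 embryos) and POU6F1 ChIP-seq peak lists were analysed. The authors trimmed low-quality bases with cutadapt 3.4, used STAR 2.7.8a with the GRCm38 genome, and assigned reads to genes with HTSeq 0.11.4 in its intersection-strict, unstranded mode. They deposited raw whole-number counts for every gene. The 92 ERCC and 5 summary rows of each table entered neither library sizes nor tests. Ambiguous reads were 1.89% to 2.73% of a library. The deposited peak lists, made by the authors with Bowtie2 2.4.4 and MACS2 2.2.7.1, give a score, a fold enrichment as a ratio, and -log10 p and q values per peak, with no depth. Which of the 2 controls belongs to which list is not stated.

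Counts were tested with edgeR 4.0.16 (R 4.3.3), its quasi-likelihood test, TMM normalization, filterByExpr and Benjamini-Hochberg adjustment over all genes tested, with stages combined by genotype and within stages. DESeq2 1.42.0 was an alternative. Levels are TMM CPM. Permutation tests were exact and two-sided, with a pseudocount of 1. Genes were matched to GENCODE vM21 (55227 of 55487 identifiers). Fits were tested on simulated data. Python 3.11.15, NumPy 2.4.6, pandas 2.3.3 and Matplotlib 3.10.9 were used. The 38 pairs of embryos of 1 group differed beyond sampling noise, and p-values measure the spread between embryos.

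The members, lists, markers and tests were chosen with earlier results of these data known. The adjusted p-values given for single genes are from this edgeR test. Named genes were all members, genes whose exons overlap them, called genes of the lists (other hosts by annotated snoRNA genes or by symbol, at most 6 each, snoRNP, nonsense-mediated decay and snoRNA trimming genes), *Dis3* as a check of the labels, and the 5 genes most like the members over the 23 embryos.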

Additional observations from a re-analysis of the deposited data

Results flagged for a closer look

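In groups of 4 to 6 embryos, 30 sets of values (10 genes in 3 groups) were searched for an embryo set apart from the rest of its group by Dixon's criterion, which singles out about 1 set in 20 by chance. It singled out 4. *Snhg6* had 342 CPM in E2.5 wild-type replicate 5. *Snhg8* had 44.1 CPM and *Dancr* 85.4 CPM in E2.5 wild-type replicate 1, the most deeply sequenced library. *Snhg12* had 20.8 CPM in E2.75 het replicate 5, below the 4 other embryos of that group, which lay close together. The cause was not tested.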

How the results depend on the processing

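Counts of called members were recomputed under each alternative. For null against het with stages combined (2 called), ERCC scaling gave 5 and the replicate block 1, and DESeq2, no filter, stage as a covariate and only 2 genotypes in the fit gave 3 each, with *Dancr* or *Snhg5* added. For null against wild-type (2), the block gave 1. For null against het at E2.5 (0), DESeq2 gave 1 and ERCC scaling 5, the latter beside 39 genes higher and 1916 lower of 15904. At E2.75 (3) the block gave 1, while DESeq2 and RLE size factors gave 3 higher and 0 lower in place of 2 and 1, and ERCC scaling 1 and 1. Within E2.5, null against wild-type (1) gave 3 with DESeq2, 2 with no filter, 0 with the block and, on the ERCC scale, 1 lower in place of 1 higher, and within E2.75 (1) it gave 2 with DESeq2. For the stages of wild-type embryos (1), DESeq2 gave 5, the block 0 and ERCC scaling 0. The log2 fold change of *Znhit6* turned to -0.094 on the ERCC scale. The causes were not tested. Leaving out 1 embryo at a time gave 2 to 3, 2 to 2, 0 to 0 (het against wild-type), 0 to 0, 1 to 3, 0 to 1, 1 to 1, 0 to 1 and 0 to 0 (stage difference) called members, in the order above. The call of *Gas5* between stages was lost without E2.5 wild-type replicates 1, 3 or 5 or any E2.75 wild-type embryo. For *Snord87* the difference ranged from 0.23 to 0.46, with exact permutation p = 0.040 without E2.75 het replicate 4, against 0.16 with it. No value was possible without its most abundant snoRNA gene, since the other has no counts.

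Replicate numbers did not pair the embryos (correlation of same-numbered embryos -0.11 to 0.09 over 17 pairs), so the replicate block shares only a number. With it the calls of *Snhg15* (null against het) and *Snhg5* (null against wild-type) were lost, as were those of *Snhg9*, *Snhg20*, *Gsr*, *Znhit6*, *Dis3* (adjusted p = 0.11), *Gata3* (0.22) and *Krt18* (0.10003) for null against het. *Gsr* was also lost with only 2 genotypes in the fit (0.10202). *Znhit6* was also lost with no filter, stage as a covariate or only 2 genotypes in the fit, and *Snhg9* with stage as a covariate. Counts of members with a POU6F1 peak stayed within 1 of the count given above under a 500 bp window, a -log10 q of at least 5 and an overlap with most of the peak. Over all genes, null against het called 493 higher and 276 lower, no filter 1266 and 542, DESeq2 1240 and 544, the block 216 and 116, and ERCC scaling 289 and 4487. *Snhg8*, with 1 count in each of 2 embryos, is limited by depth.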

Other observations

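Among the genes for snoRNP proteins and assembly, 5 of 18 differed between stages in wild-type embryos in the edgeR fit. In that fit 6.76% of all 13272 genes tested were called in either direction, and the counts for these lists were not tested against it. *Nhp2* (log2 fold change -1.60 ± 0.28, adjusted p = 0.017), *Snu13* (-1.27 ± 0.30, adjusted p = 0.043), *Nop58* (-1.12 ± 0.28, adjusted p = 0.047) and *Nufip1* (-1.11 ± 0.23, adjusted p = 0.027) were lower and *Ruvbl2* (1.14 ± 0.35, adjusted p = 0.091) higher at E2.75. *Nhp2* belongs to the box H/ACA particle, *Snu13* and *Nop58* to the box C/D particle. Among coding host genes, 8 of 180 were higher and 11 lower, including the ribosomal protein gene *Rpl23* (-1.56 ± 0.38). On the ERCC scale the median of all genes in this comparison was 0.92, beside 0.03.

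Over the 23 embryos, the Pearson correlation of log2 CPM between members ranged from -0.48 (*Snhg3* and *Snhg5*) to 0.78 (*Gas5* and *Snhg12*), with a median of 0.40 over 36 pairs. Of 7785 genes with a mean of at least 10 CPM, those most like the mean standardized level of the members were *Dpy30* (r = 0.89), *Rps27l* (0.88), *Pomp* (0.88), *Ndufa2* (0.88) and *Ccdc58* (0.86). These values share libraries, genotypes, stages and scaling, and are a description.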
